A study of Mus musculus with 12 samples.

Results

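Immediate early genes are switched on within minutes of a signal, without new protein synthesis, and their mRNAs are short-lived. MAP kinases, calcium and stress signals act on transcription factors that already sit at their promoters, such as serum response factor with Elk proteins and CREB with its ATF relatives. Growth factors, stretch and ischaemia induce them in heart muscle, and the enzymes, warmth and handling of a cell dissociation are known to induce them as well. Fos and Fosb encode Fos proteins, which bind DNA only as dimers with a Jun protein or a related basic leucine zipper protein. Jun, Junb and Jund encode the Jun proteins of these AP-1 dimers, of which Jund is known for a steadier level than the others. Atf3 encodes a stress-induced basic leucine zipper factor that often represses, Egr1 a zinc finger activator, Klf4 and Klf6 zinc finger factors of the Krüppel-like family, and Ier2 a small nuclear protein of less settled function.

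These 10 genes are Fos, Fosb, Jun, Junb, Jund, Egr1, Atf3, Ier2, Klf4 and Klf6. They were chosen by symbol from the 24421 genes counted in each library, with earlier results of these data known. They were followed in cardiomyocytes sorted by flow cytometry, to see whether the 4 groups of cells differed in early genes as a sign of stress during dissociation and sorting. The first pair of groups came from Glut1 transgenic hearts, which carried aMHC-hGLUT1tg together with aMHC-Cre tg and the R26+/YFP reporter, with 4 Tnnt2low and 4 Tnnt2high libraries, and the second pair from wild type (WT) hearts, with 2 Tnnt2low and 2 Tnnt2high libraries. In the transgene the αMHC promoter drives the human glucose transporter GLUT1 in cardiomyocytes. The study's methods give αMHC-Cre and the Rosa26 YFP reporter, which mark the cardiomyocyte lineage, also for the WT hearts. All mice were of CD1 background and at postnatal day 1, uninjured as far as the labels say. The labels name the cells by Mitotracker signal, and Mitotracker high was read as Tnnt2low and Mitotracker low as Tnnt2high, the pairing of the study. In the transgenic groups a replicate number stands for 1 heart, sorted into both populations. The labels of all 4 WT libraries start with 1 heart number, so that n = 2 counts WT libraries and perhaps not hearts.

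Reads assigned to genes numbered 4065306 to 9815069 per library, and the 10 early genes together took 2866 to 14544 of them. In Glut1 transgenic libraries the gene reads numbered 7301762 to 9815069 for Tnnt2low and 4065306 to 5241475 for Tnnt2high, so that the Tnnt2high values rest on fewer counts. The lowest single count of a member was 47, for Klf4. Reads outside every exon, per read in a gene, averaged 0.962 ± 0.0758 (SD, n = 4) in Glut1 transgenic Tnnt2low and 2.38 ± 0.169 (SD, n = 4) in Tnnt2high libraries, against 1.31 ± 0.258 (SD, n = 2) and 1.67 ± 0.228 (SD, n = 2) in the WT populations in the same order. The 12 cardiomyocyte markers summed to 138555 to 177109 CPM (a gene's reads relative to all gene reads of the library) in every library, and 1 of them was called higher and 5 lower in Tnnt2low cells of Glut1 transgenic hearts. Slc2a1, the mouse gene for Glut1, was read at 33.5 to 92.5 CPM in the Glut1 transgenic libraries and at 13.3 to 28.9 CPM in the WT libraries. Xist was above 100 CPM in 8 libraries and the Y-linked Ddx3y above 1 CPM in the other 4, both libraries of Glut1 transgenic replicates 2 and 4, so hearts of both sexes entered the transgenic groups and no WT library had the Y-linked signal. Tnnt2 itself, cardiac troponin T, was lower in Tnnt2low cells of Glut1 transgenic hearts, by -0.42 ± 0.09 on the log2 scale (SE; edgeR, adjusted p = 0.00723), and stood at -0.04 ± 0.13 (SE; adjusted p = 1) in WT, where the RNA does not show the difference that the name of the populations gives.

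All 10 genes passed the filter on low counts with 12252 genes in all. Levels are given as CPM scaled by the TMM method, and fold changes come from edgeR's quasi-likelihood test of all 12 libraries in 1 fit, with a Benjamini-Hochberg adjustment over the 12252 genes and a call at an adjusted p under 0.05. These libraries are bulk RNA, in which a larger share of cells with a transcript and more of it per cell cannot be told apart. Per kilobase of exon and averaged over the 12 libraries, Jund stood highest at 137 ± 18.6 CPM per kb (SD, n = 12), followed by Jun at 104 ± 34.6 and Fos at 60.9 ± 34.6 CPM per kb. Atf3 came next at 28.0 ± 9.98 and Egr1 at 19.7 ± 10.5 CPM per kb. Junb at 13.6 ± 4.96, Ier2 at 12.2 ± 3.38, Fosb at 8.42 ± 7.495, Klf6 at 8.28 ± 1.36 and Klf4 at 7.71 ± 2.96 CPM per kb lay within each other's spread, and each gene's spread also reached that of its neighbours in this order.

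Between Tnnt2low and Tnnt2high cells of Glut1 transgenic hearts, Fosb, Klf4 and Atf3 were called higher in Tnnt2low cells and no member was called lower. Fos, Jun and Egr1 did not pass the test, although they were higher in Tnnt2low cells of every heart, as were 20.3% of all tested genes. Junb, Jund, Ier2 and Klf6 did not pass the test either. The 3 calls among 10 members stand beside a background of 8.42% of all tested genes called higher and 8.33% called lower in this comparison. The median log2 fold change was 0.69 over the members and -0.01 over all tested genes, and 9 of 10 members had a positive value.

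**Figure D1:**
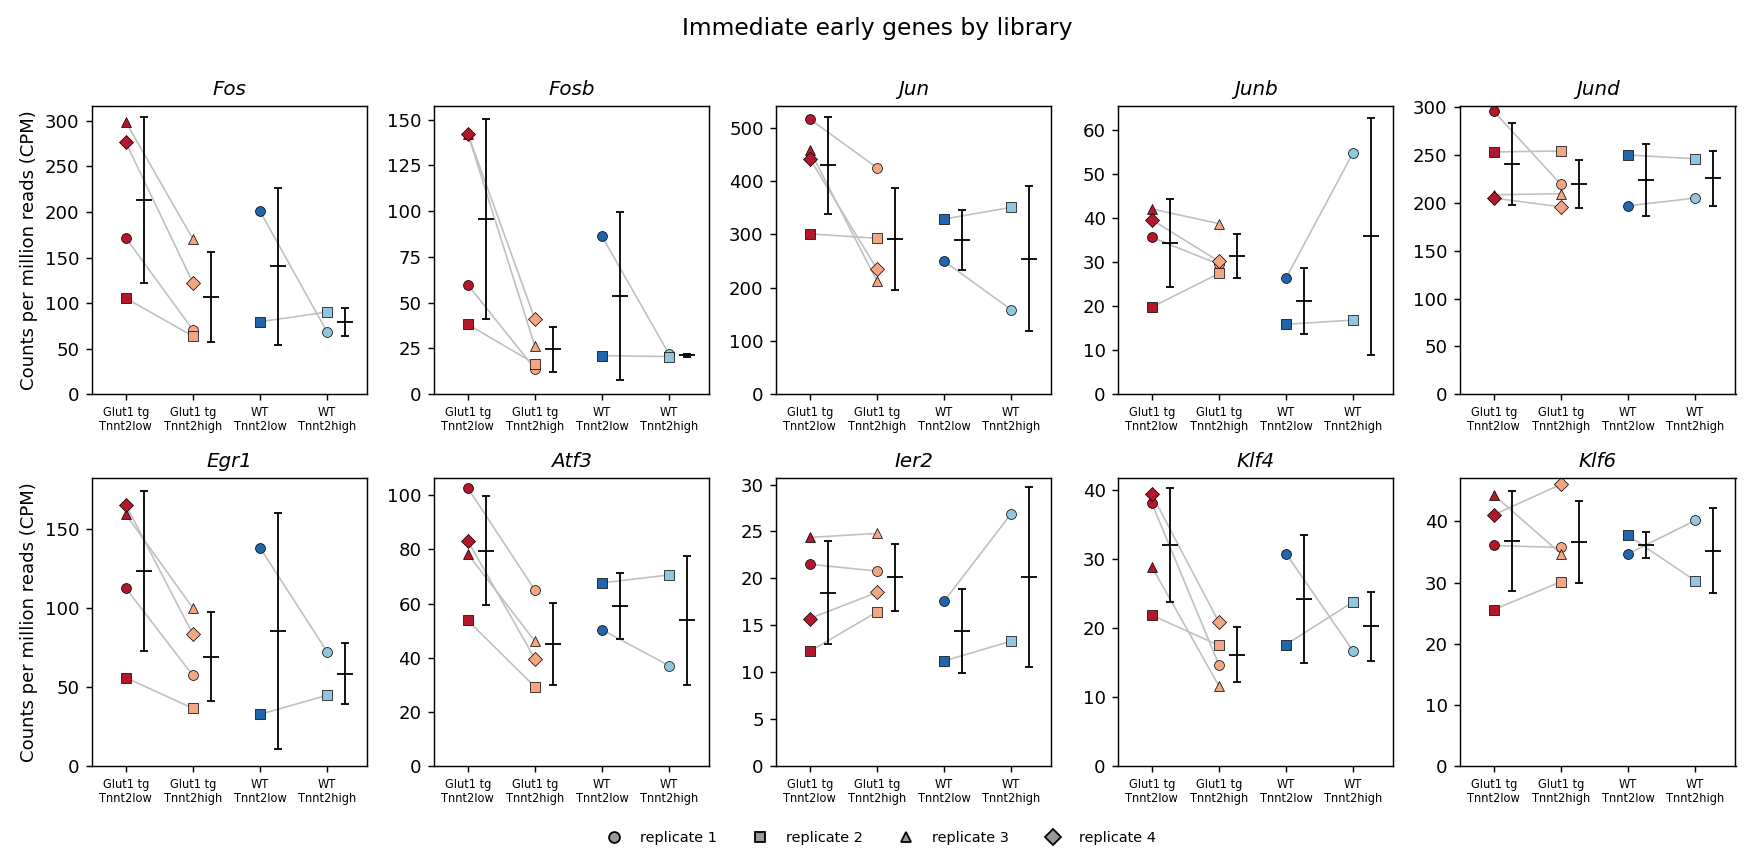
Level of each immediate early gene in CPM (vertical axis, from 0) in the 12 libraries, by group (horizontal axis). Points are libraries, shapes are replicate numbers, grey lines join the libraries of 1 replicate, and the bars beside them give the mean and SD. Fosb and Klf4 fall along every line of the Glut1 transgenic hearts. In WT the line of Klf4 falls in replicate 1 and climbs in replicate 2, and that of Fosb falls steeply in replicate 1 and hardly at all in replicate 2.

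Fosb, which encodes a partner of Jun proteins, read 59.9, 38.2, 142 and 142 CPM in the Tnnt2low libraries of Glut1 transgenic replicates 1 to 4. The Tnnt2high libraries of the same hearts read 13.9, 16.7, 26.3 and 41.0 CPM. Each heart had more in its Tnnt2low cells, by 2.28 to 5.42 times, although the lowest Tnnt2low value lay under the highest Tnnt2high value. Fosb rose by a log2 fold change of 1.97 ± 0.48 (SE; edgeR, adjusted p = 0.0127), or 3.90-fold, the largest change of the 10. Its call was lost in edgeR's robust fit, with an adjusted p of 0.0639.

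Klf4, which can restrain proliferation and is induced by stress in muscle and endothelium, read 38.1, 21.9, 28.9 and 39.4 CPM in Tnnt2low cells, against 14.7, 17.5, 11.7 and 20.9 CPM in Tnnt2high cells of these hearts. It was the only member whose 4 Tnnt2low libraries all lay above the 4 Tnnt2high libraries, a pattern that 11.2% of all tested genes also had in this direction. The log2 fold change was 0.99 ± 0.26 (SE; edgeR, adjusted p = 0.0187). By an exact two-sided permutation test over libraries p was 0.0286, the smallest that 4 against 4 libraries allow, and 0.129 after adjustment over all genes. That test assigned libraries freely and did not keep the pairing of both populations within a heart. Leaving out replicate 1 of either population ended the call, with an adjusted p of 0.0597 without the Tnnt2low and 0.0556 without the Tnnt2high library.

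Atf3, a factor induced by amino acid, oxidative and endoplasmic reticulum stress, read 103, 53.8, 78.3 and 83.1 CPM in Tnnt2low cells. The Tnnt2high cells of the same hearts read 65.0, 29.3, 46.1 and 39.6 CPM, so each heart had 1.58 to 2.10 times more in its Tnnt2low cells while the groups overlapped. Atf3 rose by 0.82 ± 0.26 on the log2 scale (SE; edgeR, adjusted p = 0.0440). This call was the least firm of the 3. It was lost in the robust fit (adjusted p = 0.0511) and without 6 of the 12 libraries in turn, with an adjusted p of up to 0.135 when Tnnt2low replicate 1 was left out. The others were Tnnt2low replicate 3 (0.0783), Tnnt2low replicate 4 (0.0831), Tnnt2high replicate 2 (0.125), Tnnt2high replicate 3 (0.0739) and Tnnt2high replicate 4 (0.0936), all of Glut1 transgenic hearts.

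Fos, the founding member of the family, read 172, 105, 299 and 276 CPM in Tnnt2low cells of Glut1 transgenic replicates 1 to 4. The Tnnt2high cells read 70.6, 63.8, 170.4 and 122 CPM. Replicates 3 and 4 were high in both populations, and the difference within a heart was 1.65 to 2.43 times. The log2 fold change of 1.00 ± 0.37 (SE) missed the threshold (edgeR, adjusted p = 0.0768), and passed it with the heart as a block (adjusted p = 0.00956). Without Tnnt2low replicate 2 or Tnnt2high replicate 3 it also passed, with an adjusted p down to 0.0333.

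Egr1, a zinc finger gene that shares its upstream signals with Fos, was highest in the same replicates 3 and 4. It read 113, 56.1, 159.5 and 166 CPM in Tnnt2low cells, against 57.5, 36.7, 100.2 and 83.5 CPM in Tnnt2high cells of Glut1 transgenic hearts. The log2 fold change was 0.83 ± 0.41 (SE; edgeR, adjusted p = 0.188, and 0.0125 with the heart as a block). Jun, the main partner of Fos proteins, read 517, 301, 458 and 442 CPM in Tnnt2low cells, against 425, 293, 213 and 235 CPM in Tnnt2high cells. For Jun the differences within a heart ran wide, since replicates 1 and 2 had 1.21 and 1.03 times more in Tnnt2low cells and replicates 3 and 4 had 2.16 and 1.88 times more. Its log2 fold change was 0.56 ± 0.25 (SE; edgeR, adjusted p = 0.146, and 0.0390 with the block).

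With the heart as a block, 6 of 10 members, Fos, Fosb, Jun, Egr1, Atf3 and Klf4, were called higher, beside 9.83% of all tested genes. The same 6 genes were higher in Tnnt2low cells of all 4 hearts, as were 20.3% of all tested genes. The block was fitted because both libraries of a Glut1 transgenic replicate came from the same heart. Without both libraries of replicate 1 the blocked fit called 3 members (Fos, Fosb and Atf3), and without those of replicate 2, 3 or 4 it called 6, 4 and 5.

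The other 4 members differed by less than the spread between libraries in Glut1 transgenic hearts. Junb, a Jun protein that can oppose Jun, read 35.6, 19.8, 42.0 and 39.5 CPM in Tnnt2low cells, against 29.5, 27.4, 38.7 and 30.1 CPM in Tnnt2high cells, a log2 fold change of 0.12 ± 0.32 (SE). Jund read 296, 253, 208 and 205 CPM in Tnnt2low cells, against 219, 254, 209.5 and 196 CPM in Tnnt2high cells, with a log2 fold change of 0.13 ± 0.14 (SE). Neither gene kept its direction in all 4 hearts. Ier2 read 12.2 to 24.4 CPM in Tnnt2low and 16.4 to 24.8 CPM in Tnnt2high cells, with a log2 fold change of -0.13 ± 0.28 (SE), and Klf6 read 25.6 to 44.3 CPM in Tnnt2low and 30.1 to 46.0 CPM in Tnnt2high cells, with 0.00 ± 0.19 (SE). The adjusted p values of these 4 genes were 0.585 to 0.996 by edgeR, and the signs of Ier2 and Klf6 changed with the scaling or length correction.

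**Figure D2:**
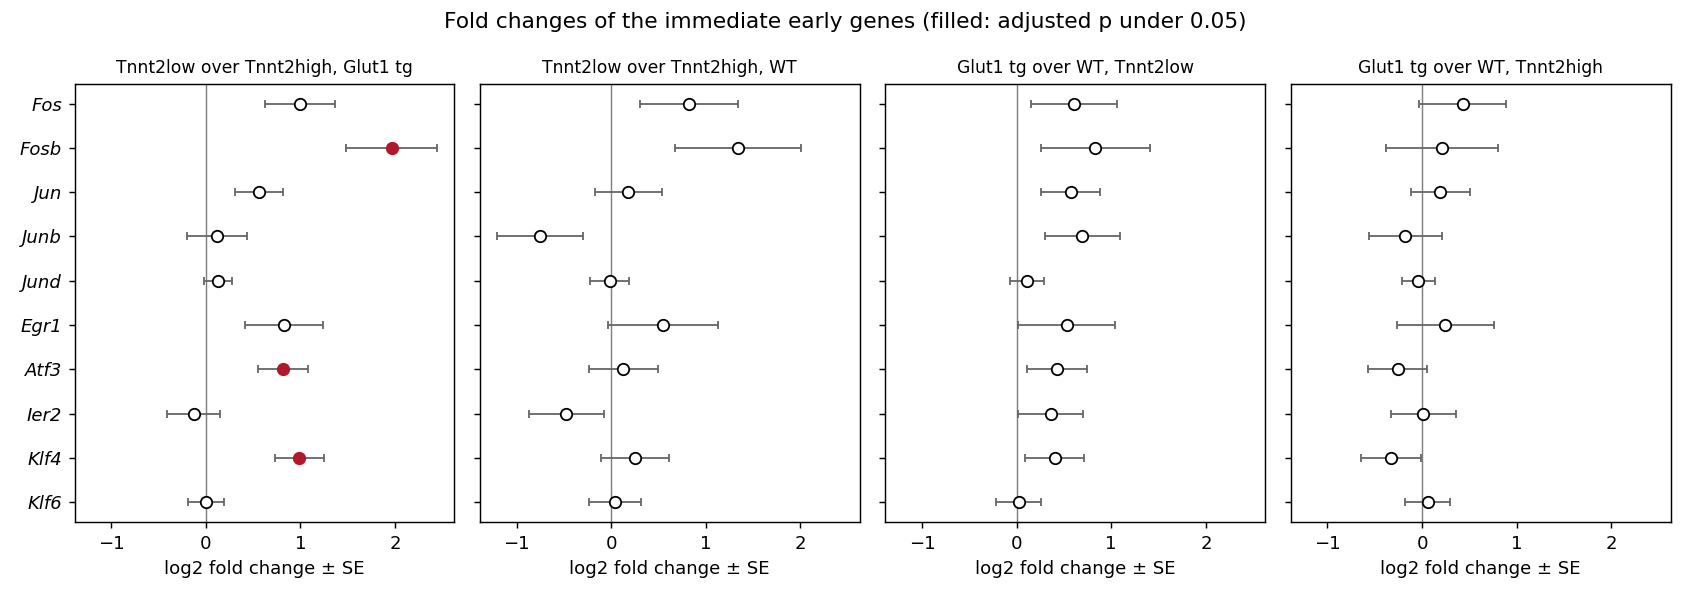
Log2 fold change of each gene with its standard error (horizontal axis) in the comparisons of populations within Glut1 transgenic and WT hearts and of genotypes within Tnnt2low and Tnnt2high cells (panels). Filled points passed an adjusted p of 0.05 in edgeR, and they are Fosb, Atf3 and Klf4 in the first panel.

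The promoters of the 3 called genes and of Fos are shown because cyclic AMP and stress signals act on early genes through CREB and ATF proteins, which bind the letters TGACG at the core of a cyclic AMP response element. Each sequence is the 250 bases before the RefSeq start of the gene on GRCm38, which can differ from the GENCODE start, read 5′ to 3′ on the strand of the gene, with TGACG on either strand in capitals (CGTCA is its other strand).
Fosb, chr7:19310046-19310295, minus strand: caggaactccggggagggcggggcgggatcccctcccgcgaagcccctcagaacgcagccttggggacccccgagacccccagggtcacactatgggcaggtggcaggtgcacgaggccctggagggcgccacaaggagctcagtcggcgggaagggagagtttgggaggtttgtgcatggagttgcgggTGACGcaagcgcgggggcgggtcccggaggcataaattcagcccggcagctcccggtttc
Klf4, chr4:55532476-55532725, minus strand: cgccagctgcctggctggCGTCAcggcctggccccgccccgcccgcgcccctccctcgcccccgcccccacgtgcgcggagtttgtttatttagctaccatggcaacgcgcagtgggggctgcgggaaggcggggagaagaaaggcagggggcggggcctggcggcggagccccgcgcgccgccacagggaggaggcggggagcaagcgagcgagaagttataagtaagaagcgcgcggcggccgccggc
Atf3, chr1:191183334-191183583, minus strand: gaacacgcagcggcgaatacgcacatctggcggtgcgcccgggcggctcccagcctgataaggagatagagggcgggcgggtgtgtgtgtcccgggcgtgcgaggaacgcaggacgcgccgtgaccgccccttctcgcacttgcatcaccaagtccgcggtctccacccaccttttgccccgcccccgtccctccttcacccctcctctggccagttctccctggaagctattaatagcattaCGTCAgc
Fos, chr12:85473640-85473889, plus strand: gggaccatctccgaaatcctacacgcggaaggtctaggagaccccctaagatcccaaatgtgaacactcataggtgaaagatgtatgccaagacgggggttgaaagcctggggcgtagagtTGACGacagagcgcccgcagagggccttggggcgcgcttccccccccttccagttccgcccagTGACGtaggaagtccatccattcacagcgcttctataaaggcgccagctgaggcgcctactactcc
TGACG on either strand stood in 5 of the 8 members with a promoter in the RefSeq table, Fos (in 2 places), Fosb, Junb, Atf3 and Klf4, and in 17.9% of 27025 promoters of the same length. The full element TGACGTCA, the AP-1 site TGACTCA and the CArG box of serum response factor were found in 0 of these 8 windows, against 1.62%, 4.43% and 1.40% of all promoters. The GC box GGGCGG, copies of which share bases in Fosb, Atf3 and Klf4, stood in 6 of 8 members against 32.9% of promoters, and TATAAA only in Fos among the 8, against 12.97%. Members' windows held 47.6% to 74.0% GC, with a median of 52.0% over all promoters. Such a match describes the letters of the window and not a bound site. Egr1 and Ier2 had no promoter in the RefSeq set, and bases beyond the 250 of a window were not searched. The window of Jund ended at base 70697738 of chromosome 8, before its GENCODE start at 70698949. That of Atf3, on the minus strand of chromosome 1, lay inside its GENCODE gene, which starts on that strand at base 191218039. A motif not found in a window is thus not shown to be absent from the gene.

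Levels of the early genes followed the heart as well as the population. After the mean of each group was taken out, the deviations of the 10 members in the Tnnt2low and Tnnt2high libraries of 1 Glut1 transgenic heart correlated at 0.85, 0.75, 0.71 and 0.86 across the members for replicates 1 to 4, where all tested genes gave 0.23, 0.13, 0.12 and 0.11. In the WT pairs the value was 0.39 for the members and 0.27 for all genes. These correlations run over genes of the same libraries, which are not independent replicates.

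**Figure D3:**
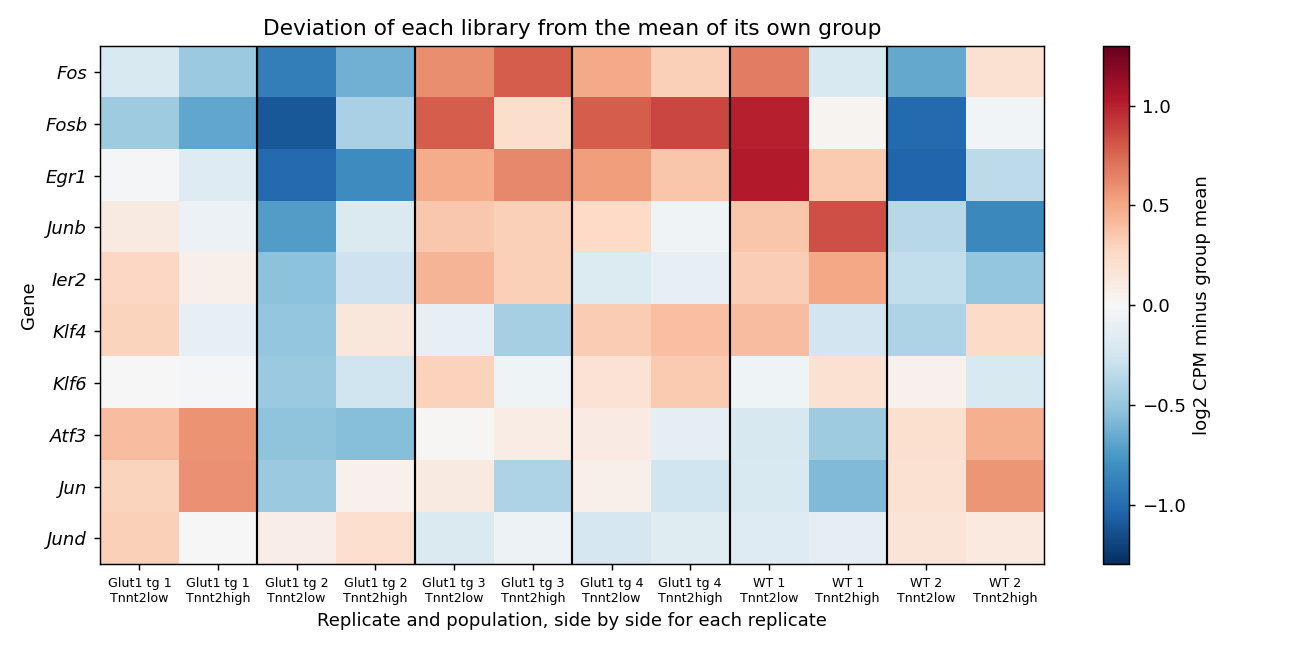
Deviation of log2 CPM from the mean of the library's own group (colour) for each gene (rows) and library (columns, the populations of a replicate side by side). Fos, Fosb and Egr1 are above their group means in either library of transgenic replicates 3 and 4 and below them in replicate 2, while Jun and Atf3 are highest in replicate 1.

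Fos, Fosb and Egr1 formed 1 pattern over the hearts. Averaged over both populations, Fos stood at 121, 84.6, 235 and 199 CPM in Glut1 transgenic replicates 1 to 4, against 135 and 84.9 CPM in the WT replicates. Egr1 gave 85.2, 46.4, 129.8 and 125 CPM in the Glut1 transgenic replicates and 105 and 38.9 CPM in WT. Jun and Atf3 had another order, with their highest mean in replicate 1, at 471 CPM for Jun and 83.8 CPM for Atf3, and lower means of 297 and 41.5 CPM in replicate 2. In WT these were higher in replicate 2, at 340 CPM for Jun against 204 CPM in replicate 1, where Fos, Fosb and Egr1 were higher in replicate 1. Replicate 2 of the Glut1 transgenic Tnnt2low libraries had the lowest level of its group for 9 of 10 members, Jund being the exception. The biological coefficient of variation over replicates was 0.449 for Fosb, 0.409 for Egr1 and 0.367 for Fos, at percentiles 77.0, 73.5 and 68.9 of tested genes, and 0.175 for Jund, at percentile 16.1.

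Over the 12 libraries Egr1 was the gene most like Fos among all tested genes, with a root mean square difference of 0.34 in log2 CPM after each gene was centred on its mean, where the median gene differed by 0.87. Fosb came at rank 108 and Klf4 at rank 566, while Jun ranked 3192 and Jund 5224. The genes outside the list nearest to Fos were Zfp217 (0.34), Shank1 (0.36), Spen (0.37), Gramd4 (0.38) and Ppp1r3b (0.38). Nearest to the mean profile of the 10 members were Zfp839 (0.18), Urb2 (0.18), Ptch1 (0.18), Bhlhe40 (0.20), a circadian and hypoxia-induced repressor, and Dusp1 (0.20), the phosphatase that ends MAP kinase signals.

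Markers of cells other than cardiomyocytes moved along with some of these levels. The 10 endothelial markers summed to 10.2, 12.01, 53.4 and 92.6 CPM in Tnnt2low libraries of Glut1 transgenic replicates 1 to 4, and to 38.3, 124, 298 and 266 CPM in the Tnnt2high libraries. In WT they summed to 108 and 15.0 CPM in Tnnt2low and to 382 and 18.0 CPM in Tnnt2high libraries. Thus replicates 3 and 4 of the Glut1 transgenic hearts and replicate 1 of WT, with more Fos, Fosb and Egr1 in Tnnt2low cells than the other replicates of their group, also held more endothelial transcripts, while Fosb, Klf4 and Atf3 were higher in the transgenic Tnnt2low cells, which had the lower endothelial sums. Jun ran the other way within Tnnt2high cells, at 425 CPM in the Glut1 transgenic library with the lowest endothelial sum and 213 CPM in that with the highest. In WT Tnnt2high cells replicate 1, with the higher endothelial sum, had less Fos than replicate 2, at 68.2 against 90.2 CPM. Fosb was close there, at 21.8 and 20.6 CPM, and Egr1 was higher in replicate 1, at 72.5 against 45.0 CPM. Of the endothelial markers 0 of 10 were called between populations of Glut1 transgenic hearts by edgeR, with 6 lower at an unadjusted p under 0.05, 1 lower by DESeq2 and 9 lower with the heart as a block (median log2 fold change -2.20). None was at 0 in a whole group, and Cdh5, which defines endothelium, averaged 13.6 ± 14.9 CPM in Tnnt2low and 51.0 ± 35.5 CPM in Tnnt2high cells (SD, n = 4). The part of endothelial RNA in the early gene levels was not tested.

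**Figure D4:**
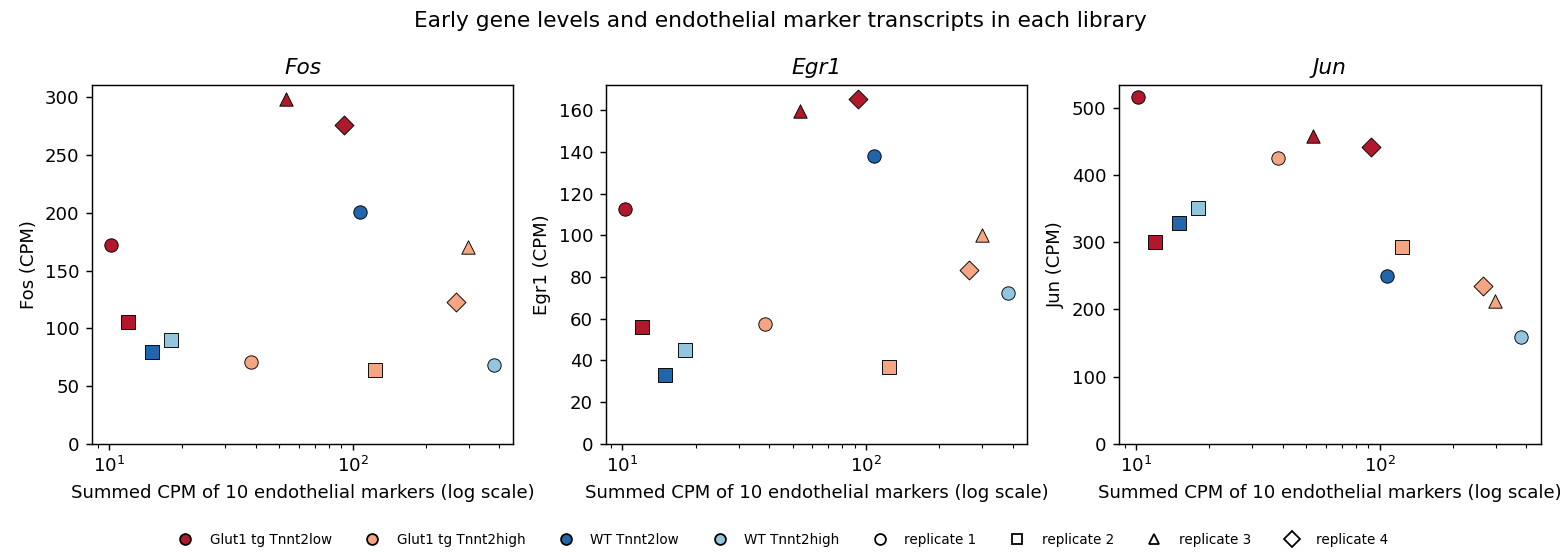
Level of Fos, Egr1 and Jun in CPM (vertical axes, from 0) against the summed CPM of 10 endothelial markers (horizontal axis, log scale) in the 12 libraries, with colours for groups and shapes for replicates. Within Tnnt2low cells the libraries at 53.4 CPM or more of endothelial markers have more Fos and Egr1 than the others, and the 4 lowest values of Jun lie at sums of 108 CPM or more.

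Fibroblast markers were lower in Tnnt2low cells of Glut1 transgenic hearts for 7 of 10 genes (median log2 fold change -2.65), and their sum was 58.9 to 153 CPM in Tnnt2low against 241 to 1059 CPM in Tnnt2high libraries. In WT that sum was 132 and 267 CPM in Tnnt2low and 125 and 564 CPM in Tnnt2high libraries. The part of fibroblast RNA in the early gene levels was not tested. Leukocyte markers summed to at most 11.3 CPM and erythroid markers to at most 25.9 CPM in any library. Smooth muscle and pericyte markers summed to 1474 to 1714 CPM in Tnnt2low and 1528 to 2001 CPM in Tnnt2high libraries of Glut1 transgenic hearts. Acta2 and Abcc9, named here after their counts were seen, held most reads of this list. They had 77334 and 39935 over all libraries, against 261 for Pdgfrb, so the sum mainly follows these 2 genes. Of 9 tested in Glut1 transgenic hearts, 2 were called higher in Tnnt2low cells, Abcc9 and Cspg4, and 1 lower, Pdgfrb. Their log2 fold changes were 0.46 ± 0.10, 0.49 ± 0.14 and -2.47 ± 0.70 (SE; edgeR, adjusted p = 0.00867, 0.0295 and 0.0271). Only 3 of the 9 had a positive value, and the median log2 fold change was -0.41. With the heart as a block 2 were higher and 3 lower. Of the mitotic genes 7 of 10 were called higher in Tnnt2low cells of Glut1 transgenic hearts (median log2 fold change 1.32), among them Mki67 and Top2a. Within those Tnnt2low cells the mitotic sum was 1481, 1759, 818 and 584 CPM in replicates 1 to 4, lower in replicates 3 and 4 where Fos was highest, and its part in the early gene levels was not tested.

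Of 33 tested early genes outside the 10, 2 were called higher and 0 lower, with a median log2 fold change of -0.02. Cyr61, a matrix protein gene driven by YAP and serum response factor, averaged 163 ± 26.9 CPM in Tnnt2low and 80.8 ± 31.1 CPM in Tnnt2high cells (SD, n = 4), a log2 fold change of 1.01 ± 0.29 (SE; edgeR, adjusted p = 0.0276). Gadd45b, a stress-induced regulator of MAP kinase kinases, averaged 37.5 ± 7.13 CPM in Tnnt2low and 23.8 ± 3.90 CPM in Tnnt2high cells (SD, n = 4; log2 fold change 0.66 ± 0.20, SE; adjusted p = 0.0364). With the heart as a block Ier3 and Nfkbiz, 2 NF-κB targets picked after their values were seen, were lower in Tnnt2low cells, with log2 fold changes of -1.03 and -1.33 in the fit without it (adjusted p = 0.0250 and 0.0417 with the block, 0.0641 and 0.103 without). Egr2, Egr3, Nr4a1, Nr4a2, Nr4a3, Klf2 and Myc, further zinc finger, nuclear receptor and Myc genes of the response, did not pass the test.

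**Figure D5:**
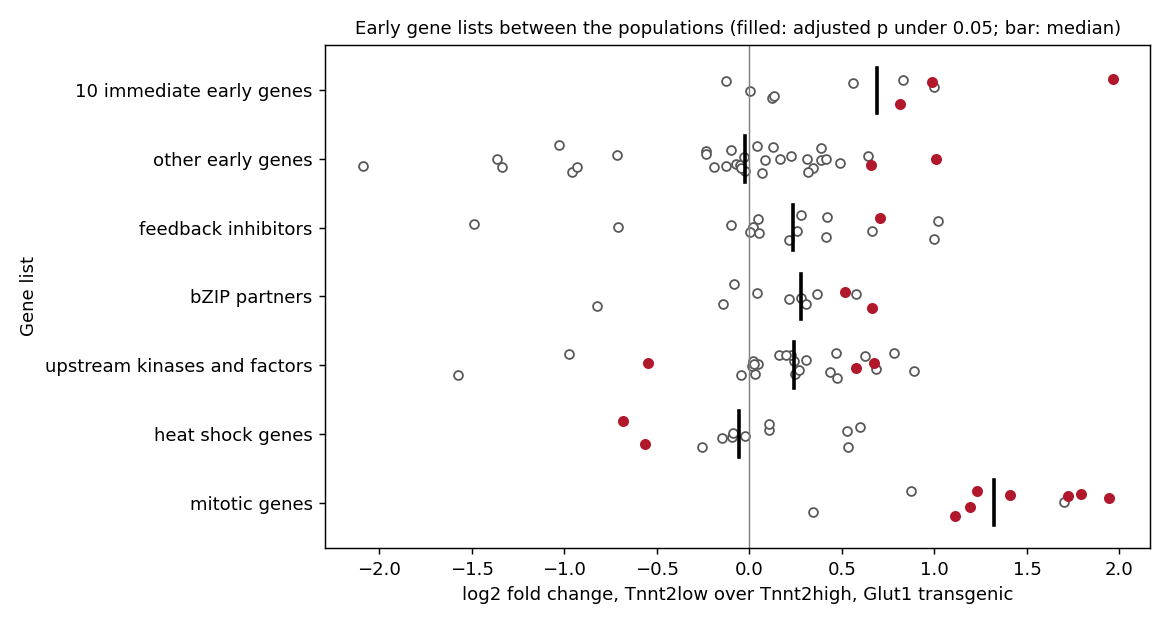
Log2 fold change between Tnnt2low and Tnnt2high cells of Glut1 transgenic hearts (horizontal axis) of the tested genes in 7 lists (rows), with the list median as a bar. Filled points passed an adjusted p of 0.05 in edgeR. The median of the 10 early genes is 0.69 and that of the other early genes -0.02.

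Of the 16 inhibitors that end the early response, 1 was called higher and 0 lower by edgeR (median log2 fold change 0.23), with 1 lower at an unadjusted p under 0.05 and 0 lower by DESeq2, which called 2 higher. With the heart as a block 1 was higher and 1 lower, Zfp36, an mRNA decay factor named after its value was seen (log2 fold change -0.71 without the block; adjusted p = 0.0424 with it and 0.127 without). The gene called higher was Dusp1, at 77.2 ± 21.1 CPM in Tnnt2low and 47.3 ± 7.31 CPM in Tnnt2high cells (SD, n = 4; log2 fold change 0.70 ± 0.20, SE; edgeR, adjusted p = 0.0266). Of 11 tested basic leucine zipper partners, Nfe2l1, which drives proteasome genes, and Atf7, a relative of Atf2, were called higher, by 0.66 ± 0.12 and 0.51 ± 0.16 on the log2 scale (SE; adjusted p = 0.00340 and 0.03996). Atf7 lost its call with the heart as a block (adjusted p = 0.0541). Among 25 upstream kinases and factors, Atf6, an endoplasmic reticulum stress factor, and Map3k5, a stress kinase, were higher, by 0.68 ± 0.14 and 0.58 ± 0.16 on the log2 scale (SE; edgeR, adjusted p = 0.00668 and 0.0271), and Map2k2, a kinase of the ERK pathway, was lower, at -0.55 ± 0.12 (SE; adjusted p = 0.00798). With the block 5 of these 25 were higher and 2 lower. Heat shock genes are often induced together with early genes by dissociation. In Tnnt2low cells 0 of 12 were higher (1 at an unadjusted p under 0.05, 0 by DESeq2) and 2 were lower, with a median log2 fold change of -0.06. These were Hspb1 at -0.56 ± 0.11 and Hspe1 at -0.68 ± 0.17 on the log2 scale (SE; edgeR, adjusted p = 0.00405 and 0.0137). Of the 12 heat shock genes 5 had a positive value and the others a negative one. Among the positive were Hspa1a at 0.60 ± 0.35, Hspa1b at 0.53 ± 0.69 and Dnajb1 at 0.53 ± 0.24 (SE), picked after their values were seen. None of them was called (edgeR, adjusted p = 0.264, 0.652 and 0.146). The 12 heat shock genes summed to 6647 to 6943 CPM in Tnnt2low and 6967 to 7880 CPM in Tnnt2high libraries of Glut1 transgenic hearts. Hsp90ab1 and Hspa8, named after their counts were seen, held the most reads of the 12, at 218710 and 163869 over all libraries, against 982 for Hspa1a. Of the nuclear RNAs, Malat1 averaged 10372 ± 1647 CPM in Tnnt2low and 10874 ± 1555 CPM in Tnnt2high cells (SD, n = 4), and Neat1 52.6 ± 21.9 and 37.6 ± 14.7 CPM in these populations (SD, n = 4), with 0 of 4 tested called by edgeR, 0 by DESeq2 and 0 at an unadjusted p under 0.05.

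In WT hearts no early gene was called between Tnnt2low and Tnnt2high cells, and for 7 of 10 members the 2 replicates went opposite ways, all but Fosb, Junb and Ier2. Fos read 201 and 79.6 CPM in WT Tnnt2low replicates 1 and 2, against 68.2 and 90.2 CPM in WT Tnnt2high. Fosb read 86.2 and 21.1 CPM in Tnnt2low, against 21.8 and 20.6 CPM in Tnnt2high. Egr1 read 138 and 32.9 CPM in Tnnt2low, against 72.5 and 45.0 CPM in Tnnt2high. In replicate 2 the populations were close in Fosb and Tnnt2low cells had less Fos and Egr1. This pair had a close mitotic sum as well, at 1133 CPM in Tnnt2low and 1099 CPM in Tnnt2high, where replicate 1 had 709 and 467 CPM.

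The log2 fold changes in WT were 0.82 ± 0.52 (SE) for Fos, 1.34 ± 0.67 (SE) for Fosb and 0.55 ± 0.59 (SE) for Egr1, each with an adjusted p of 1 in edgeR. Klf4 read 30.8 and 17.6 CPM in Tnnt2low, against 16.7 and 23.8 CPM in Tnnt2high, and Atf3 50.3 and 67.6 CPM against 37.1 and 70.5 CPM in the same libraries, so the 2 replicates went opposite ways for both genes. Jun did so too, at 250.015 and 329 CPM in Tnnt2low and 159 and 351 CPM in Tnnt2high. Junb read 26.4 and 15.9 CPM in Tnnt2low, against 54.8 and 16.8 CPM in Tnnt2high, and Ier2 17.6 and 11.2 CPM against 26.9 and 13.3 CPM, lower in Tnnt2low cells of both replicates. Jund stayed within 197 to 249.9 CPM and Klf6 within 30.3 to 40.1 CPM over the 4 WT libraries. Of the members 1, Fosb, was higher in Tnnt2low cells of both WT replicates, as were 25.7% of all tested genes. The test called 0 genes of any kind here (0%), with 381 genes and 0 members at an unadjusted p under 0.05 in edgeR and 3 genes and 0 members called by DESeq2. With 2 against 2 libraries an exact permutation test cannot go below p = 0.333.

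Whether the population difference itself differed between Glut1 transgenic and WT hearts was tested as an interaction, and 0 members and 0 of all genes (0%) were called. At an unadjusted p under 0.05 edgeR gave 554 genes and 0 members, and DESeq2 called 5 genes and 0 members. The interaction was positive for 9 of 10 members, with a median of 0.36 on the log2 scale against 0.01 over all tested genes, and its largest values were 0.87 ± 0.55 for Junb, 0.73 ± 0.44 for Klf4, 0.69 ± 0.45 for Atf3 and 0.62 ± 0.81 for Fosb (SE). The call of Fosb, Klf4 and Atf3 in Glut1 transgenic and not in WT hearts is therefore not shown to be a difference between the genotypes.

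Between genotypes, Glut1 transgenic Tnnt2low cells had a higher mean of each of the 10 early genes than WT Tnnt2low cells, and none was called. The median log2 fold change was 0.48 over the members and 0.00 over all tested genes. The mean of Fosb was 95.7 ± 54.6 CPM over 4 Glut1 transgenic and 53.7 ± 46.1 CPM over 2 WT libraries (± SD), a log2 fold change of 0.83 ± 0.57 (SE). This value rests on the WT libraries, since leaving out replicate 1 of the WT Tnnt2low pair gave 2.17 and leaving out its replicate 2 gave 0.15, and a block on the replicate number gave 0.11. The mean of Junb was 34.2 ± 9.996 CPM in transgenic and 21.1 ± 7.43 CPM in WT libraries, and that of Jun 429 ± 91.4 CPM in transgenic and 289 ± 55.7 CPM in WT libraries (± SD), with log2 fold changes of 0.70 ± 0.40 and 0.57 ± 0.32 (SE). The libraries of the genotypes overlapped for all 10 members. Of all genes 1 passed the test (0.00816%), the histone gene Hist1h2bj, lower in Glut1 transgenic cells by a log2 fold change of -3.76 ± 0.52 (SE; edgeR, adjusted p = 0.0365) and named after its value was seen. At an unadjusted p under 0.05 there were 256 genes and 0 members in edgeR, and DESeq2 called 6 genes and 0 members.

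In Tnnt2high cells the genotypes lay closer, with a median log2 fold change of 0.04 over the members and 6 of 10 positive. The mean of Fos was 107 ± 49.8 CPM over 4 transgenic and 79.2 ± 15.5 CPM over 2 WT libraries (± SD), at 0.43 ± 0.46 (SE) the highest of the members on the log2 scale. That of Klf4 was 16.2 ± 3.94 CPM in transgenic and 20.3 ± 5.04 CPM in WT libraries (± SD), at -0.33 ± 0.32 (SE) the lowest. The calls numbered 0 of all genes (0%), with 650 genes and 0 members at an unadjusted p under 0.05 in edgeR, and 5 genes and 0 members called by DESeq2. The smallest p of an exact permutation test of 4 against 2 libraries is 0.0667. All WT libraries lacked the Y-linked signal that 4 Glut1 transgenic libraries had, and the part of sex in these comparisons was not tested.

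By GENCODE vM21 on mm10, Jun, Junb, Jund and Ier2 have a single exon in their longest transcript, and their reads cannot tell spliced mRNA from unspliced or genomic template. Jun (chromosome 4, 95049034 to 95052222) and Jund (chromosome 8, 70698949 to 70700616) overlap the antisense genes Junos and Gm11175, and Junb (chromosome 8, 84974484 to 84978718) overlaps an exon of Prdx2 on the other strand. The sources used here do not say whether counting used strand, so reads of these pairs could not be told apart. The 3 called genes are spliced, with 4 exons each in the longest transcript of Fosb (chromosome 7, 19302696 to 19310051) and Atf3 (chromosome 1, 191170296 to 191218039) and 5 in Klf4 (chromosome 4, 55527143 to 55532466), and no other gene overlaps their exons. Counts per gene do not set spliced reads apart, so for these 3 genes too they cannot tell mRNA from unspliced or genomic template. Exon length of the members ran between 1522 bp for Ier2 and 6243 bp for Fosb. Across tested genes the fold change between populations of Glut1 transgenic hearts rose with exon length (Spearman 0.45 over 12186 genes, which are not independent), and once length and GC content were modelled as an offset the same 3 members were called among 651 genes.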

How the data were processed

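The authors deposited raw counts of reads per gene for 12 mRNA libraries of sorted cardiomyocytes, read single-end at 50 bp. According to the study's methods and the submitters' processing notes, reads were checked with FastQC, trimmed at a Phred score of 20, aligned with HISAT2 to mm10, counted with HTSeq over the union of exons and tested with DESeq2. Versions, counting mode and strand use were not given in the sources used here. Tissue extracts are described by the labels and sorted cells by the methods, which were followed. Rows that name no gene held 63.6% to 83.8% of the records and stayed out of totals and tests.

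The counts went into edgeR 4.0.16 under R 4.3.3, with TMM scaling, the filterByExpr filter by group, the quasi-likelihood test and a prior count of 2 in log2 CPM, with all 12 libraries in 1 fit without a block, after the methods, which name none. Calls used an adjusted p under 0.05 with no fold minimum. The fit was tested on simulated data. Libraries of a Glut1 transgenic replicate come from the same heart by the labels, and their deviations from group means correlated over all genes at 0.11 to 0.23 (0.27 for the WT pair), so the heart was fitted as a block. Exact permutation tests were two-sided and assigned libraries freely. The p-values of edgeR within WT rest on a spread estimated over all 12 libraries, most of them of Glut1 transgenic hearts. The WT libraries are possibly of 1 heart, so the spread between WT hearts may not enter. Alternatives were DESeq2 1.42.0, RLE scaling, no filter, a minimum count of 50, a robust fit, only the groups compared, thinning to 4065306 reads, a loess offset for length and GC content (span 0.3), the block, and leaving out each library. Gene structure came from GENCODE vM21, with 24045 genes (98.5%) matched by symbol, and promoters from RefSeq on GRCm38, with 8 of 10 members matched. Figures were drawn in Python 3.11.15 with matplotlib 3.10.9.

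The 10 genes, the other gene lists and the tests were chosen with earlier results of these data known. Named were the 10 genes, the called members of each list (at most 4 per direction, or the 2 of highest mean CPM), the 5 genes most like Fos and like the members' mean, and Slc2a1, Xist and Ddx3y. Other genes named with values are marked as chosen after their values were seen.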

Additional observations from a re-analysis of the deposited data

Results flagged for a closer look

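The summed level of the 10 early genes in Glut1 transgenic Tnnt2low replicate 2 was 887 CPM, far below the other 3 libraries of its group, which lay at 1391 to 1485 CPM. Its gap to the nearest library was 0.842 of the range, above Dixon's 95% critical value for 4 libraries. Chance alone flags about 1 in 20 groups, and 22 were tested. No single member was past this value in either Glut1 transgenic group.

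Reads outside every annotated exon, which the gene counts do not use, numbered 2.38 per gene read on average in Glut1 transgenic Tnnt2high libraries, and each of these 4 libraries lay above both WT Tnnt2high libraries (1.83 and 1.51). Among the 10 interactions of population with genotype none passed the test.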

How the results depend on the processing

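Fosb, Atf3 and Klf4, higher in Tnnt2low cells of Glut1 transgenic hearts, were called with DESeq2, RLE scaling, a minimum count of 50, only the groups compared, thinning to equal depth and the offset for length and GC content, and the members called numbered 5 with no filter on low counts, which added Fos and Jun, and 1 (Klf4) in the robust fit. With the replicate block, the pairing of both libraries of a heart, they numbered 6, and 7 with block and offset, which added Jund. Chosen after seeing the data, the block without the heart of replicate 2 or 4 called 6 and 5. Of all genes 274 were called higher and 377 lower with the offset, and 474 and 558 with block and offset. Sign changes were Ier2 at 0.26 (offset) and 0.24 (block and offset), and Klf6 at -0.013 (DESeq2, RLE scaling and the minimum count), -0.010 (only the groups compared), -0.039 (thinning) and -0.0076 (block).

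In WT hearts 3 genes (DESeq2), 6 (no filter), 5 (only the groups compared), 2 (block) and 1 (block and offset) were called, 0 of them members, and Jund turned to 0.030 (offset) and 0.043 (block and offset). Between genotypes in Tnnt2low cells 6 (DESeq2), 10 (no filter), 5 (a block on the replicate number) and 0 genes (minimum count, robust fit, thinning) were called. In Tnnt2high cells the calls numbered 5 (DESeq2), 13 (no filter), 3 (only the groups compared) and 4 (number block), and in the interaction 5 (DESeq2) and 9 (no filter). Replicate numbers do not pair hearts across genotypes, and the number block turned Klf6 to -0.21 in Tnnt2low cells and Fos to -0.28, Fosb to -0.62, Jund to 0.12, Egr1 to -0.33, Ier2 to -0.059 and Klf6 to -0.14 in Tnnt2high cells, where Ier2 was -0.046 (thinning) and -0.034 (offset). Only the groups compared gives no separate value for the interaction. The cause of these shifts was not tested.

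Leaving out 1 library at a time called 1 to 4 members in Glut1 transgenic hearts, 601 to 1095 genes higher and 636 to 1048 lower, with counts of genes higher over 1.5 times smaller without replicate 1 or 2 of either transgenic population. It called 0 to 1 genes in each of the other comparisons. A WT group left with a lone library was assumed to vary like the other groups. Log2 fold changes that changed sign between the populations of Glut1 transgenic hearts ran over -0.29 to 0.028 (Ier2), -0.10 to 0.14 (Klf6). Log2 fold changes that changed sign between the populations of WT hearts ran over -0.00081 to 2.02 (Fosb), -0.28 to 0.88 (Jun), -1.37 to 0.32 (Junb), -0.20 to 0.15 (Jund), -0.82 to 1.24 (Egr1), -0.26 to 0.68 (Atf3), -0.89 to 0.11 (Ier2), -0.20 to 0.60 (Klf4), -0.14 to 0.25 (Klf6). Log2 fold changes that changed sign between genotypes in Tnnt2low cells ran over -0.060 to 0.29 (Jund), -0.16 to 1.90 (Egr1), -0.083 to 0.16 (Klf6). Log2 fold changes that changed sign between genotypes in Tnnt2high cells ran over -0.16 to 0.41 (Fosb), -0.27 to 0.88 (Jun), -0.79 to 0.89 (Junb), -0.17 to 0.11 (Jund), -0.053 to 0.62 (Egr1), -0.65 to 0.29 (Atf3), -0.41 to 0.59 (Ier2), -0.12 to 0.27 (Klf6). Log2 fold changes that changed sign in the interaction ran over -0.34 to 0.99 (Fos), -0.054 to 1.96 (Fosb), -0.32 to 0.84 (Jun), -0.20 to 1.49 (Junb), -0.019 to 0.33 (Jund), -0.41 to 1.65 (Egr1), -0.23 to 0.77 (Ier2), -0.25 to 0.14 (Klf6). Over the alternatives and the left-out libraries together, 976 member values kept their sign and call. In the same settings 214 counts stayed within 1.5 times of the main count, and the block changed no other call of a member. Tnnt2high libraries of the transgenic hearts held the fewest reads, and 2 WT libraries a group limit every comparison with WT.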
